A study of Homo sapiens with 24 samples.

Results

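A group of 134 genes, of 6569 measured in both batches of the series, was chosen by how their new transcription answered the loss of 2 different subunits of the Integrator complex. A member was at least 1.5-fold higher after INTS8 protein was removed, whether or not the variant N211del was present, and changed by at most 0.25 on the log2 scale (1.19-fold) after INTS11 was removed. The thresholds applied to differences of mean log2(FPKM + 0.1), where FPKM is the deposited value per kilobase of gene, and each batch also required a mean of at least 0.1. Symbols starting with ZNF or SLC and 4 single genes were left out, which removed 10 genes that met the thresholds. The values that chose the members are therefore given below as a description, without a test. For scale, 865 genes passed the 1.5-fold threshold in all 3 contrasts of the INTS8-tagged lines, and 269 passed it in those and in both INTS11 contrasts.

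All libraries came from DLD1, an established line of human colorectal adenocarcinoma, and TT-seq measured the RNA they were making at the time, by brief labelling and capture of new transcripts. In the INTS11-dTAG line a dTAG degron was knocked in at INTS11, and in the INTS8-dTAG line at INTS8. The third line had the INTS8 knock-in plus ectopic expression of INTS8-N211del; it is called the N211del line here. The promoter of that construct, and how many clones stand behind any line, are not given in the sources used here. Each line in batch 1 received dTAG13, the compound that sends the tagged protein for degradation, or the vehicle DMSO for 3 h. In batch 2 the INTS11 and N211del lines were sampled at 0, 1 and 3 h of dTAG13, with no vehicle group and no INTS8-dTAG line. All lines carry a tag and no untagged line was treated, so effects of dTAG13 itself cannot be told apart from loss of the target. The 24 libraries form 12 groups of 2, which the series' design text calls biological duplicates, and the rule used 20 of them; only the 4 libraries at 1 h were left out of the choice.

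Integrator binds RNA polymerase II soon after transcription starts. Its endonuclease module, with INTS11 as the catalytic subunit, cuts the young transcript, and its phosphatase module, in which INTS8 helps to hold PP2A, removes phosphates that the pause-release kinase adds to the polymerase and its partners. Loss of either activity can let more polymerase enter the gene body, and stimulus-responsive genes such as immediate early genes are well known to be sensitive to the complex.

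Each library held 5514811 to 8114955 whole-number units over the measured genes in batch 1 and 8706126 to 11261859 in batch 2, and the median member held 612 to 1432.5 units in a batch 1 library and 987 to 1878.5 in batch 2. Replicates correlated across genes at r = 0.995 to 0.998. Of 14 colon epithelial markers, 7 were measured in both batches, all with a mean of at least 1, among them EPCAM, CDH1, CDX2 and KRT18. Batch 2 held values for 10 of the 14, and 7 of those had a mean of at least 1. Of 8 fibroblast markers only COL1A1 had a value, at most 0.318 FPKM, and no value was held for the immune or endothelial markers.

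Promoter sequence is shown first for members that share a short element. The cyclic AMP response element, the palindrome TGACGTCA bound by CREB and ATF factors, lay in the promoters (250 bases before to 50 after the start, RefSeq, GRCh38.p14) of DUSP1, TAF4B, MAPRE2 and SH3GL2. The capitals mark it in a stretch of each, written 5′ to 3′ in the direction of transcription, from chr5:172771266-172771335, minus strand, chr18:26226315-26226384, plus strand, chr18:35041313-35041382, plus strand and chr9:17579001-17579069, plus strand. In SH3GL2, which encodes the endocytic protein endophilin A1, the element spans the annotated start.

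DUSP1: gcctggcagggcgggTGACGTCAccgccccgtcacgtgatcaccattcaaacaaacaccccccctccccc
TAF4B: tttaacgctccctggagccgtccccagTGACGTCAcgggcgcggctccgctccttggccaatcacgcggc
MAPRE2: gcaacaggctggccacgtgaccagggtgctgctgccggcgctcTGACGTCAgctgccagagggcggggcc
SH3GL2: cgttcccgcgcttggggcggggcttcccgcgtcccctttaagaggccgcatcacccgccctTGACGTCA

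These 4 were 3.67% of the 109 members with a promoter entry, against 3.18% of 5405 measured genes. MYLIP and ARHGAP26 each carried the CCAAT box, the element of NF-Y, at 2 places in the reverse orientation, capitalised below (chr6:16128966-16129035, plus strand, and chr5:142770252-142770343, plus strand).

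MYLIP: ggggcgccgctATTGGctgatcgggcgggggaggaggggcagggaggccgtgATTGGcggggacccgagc
ARHGAP26: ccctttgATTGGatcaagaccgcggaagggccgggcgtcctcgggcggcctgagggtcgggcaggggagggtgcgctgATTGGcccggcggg

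The CCAAT box was found on either strand in 45 members (41.3%) and in 36.8% of all promoters. The ETS core CCGGAA was found in 20 members (18.3%), against 27.9% of all promoters, and the AP-1 site TGACTCA in 1, IL1A (0.917% against 3.20%). The 269 genes past 1.5-fold in every contrast, INTS11 included, had 216 promoter entries. Of these, 14.4% held the ETS core and 5.56% the AP-1 site. A low share of the ETS core was therefore not particular to the members. Neither the response element nor the CCAAT box contains another of the motifs searched. A match to these letters is a description of the sequence and not of binding.

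At 3 h of dTAG13 the members were higher by a median of 0.78 on the log2 scale in the INTS8 line, 0.91 in the N211del line of batch 1 and 0.84 in the N211del line of batch 2. The medians of all 6569 genes in the same contrasts were 0.06, 0.21 and 0.17. In the INTS11 line the members' median was 0.12 in batch 1, where that of all genes was −0.03, and 0.06 in batch 2, equal to the 0.06 of all genes. All 134 members were called higher by limma (adjusted p under 0.05) in the 3 contrasts that chose them, where 34.6%, 48.5% and 49.7% of all tested genes were called higher; as the members were chosen on these values, nothing is read from that count. The INTS11 window is one of size and not of a test: 13 members were called higher in INTS11 in batch 1 (19.4% of all genes) and none lower (19.8%), and 37 were called higher (36.0%) and 11 lower (19.3%) in batch 2. At least 2-fold differences were held by 30 members in INTS8 (8.37% of all genes), 47 in N211del in batch 1 (8.8%) and 35 in batch 2 (7.82%), and 18 members reached 2-fold in all 3 (5.43%). The rise was larger in INTS8 than in N211del of the same batch for 36 of the 134. The median of all genes was likewise lower in INTS8 (0.06) than in N211del (0.21). These values chose the members, and the same share over all genes was not counted.

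**Figure D1:**
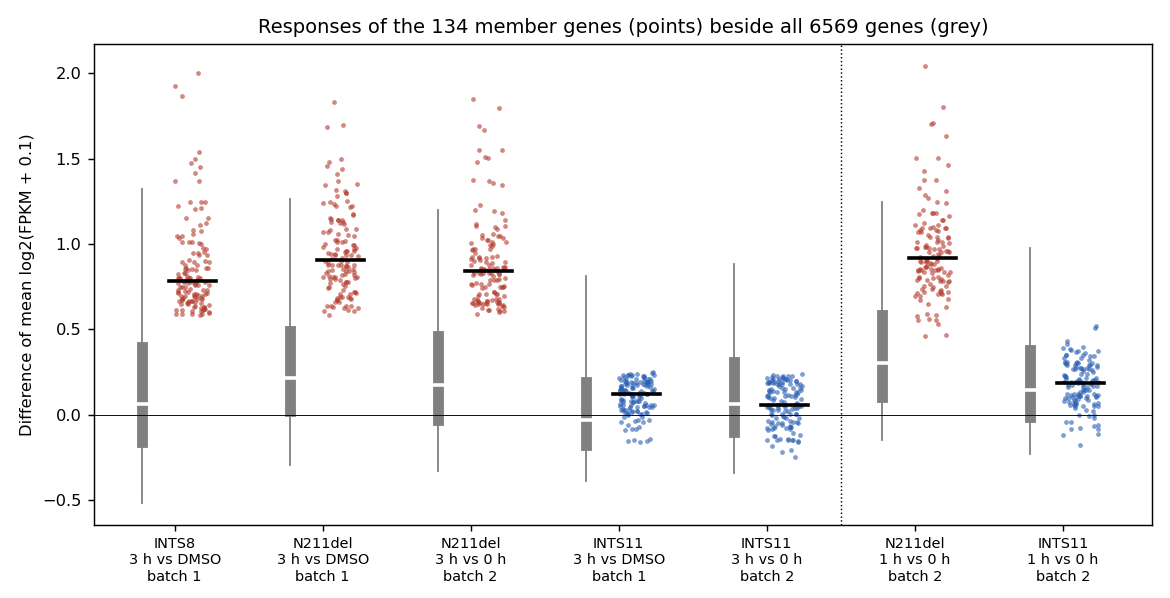
Difference of mean log2(FPKM + 0.1) in each contrast, with 1 point per member gene and its median as a black bar; the grey bar spans the middle 50% of all 6569 genes, the thin line 90% and the white mark their median. The 5 contrasts left of the dotted line chose the members; to the right, the N211del members sit around 0.92 at 1 h and the INTS11 members around 0.19.

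CEP120, PDE7A and CENPC lay just inside the threshold, their smallest rises being 0.586, 0.587 and 0.587. FMNL2, CEP78 and GFOD1 lay just outside, the lowest of them, GFOD1, at 0.581. Centring each library on its median gene leaves 53 genes, of which 47 are among the 134, so the choice depends on the deposited scaling. Of the 134, 76 stayed members whichever of the 20 libraries was left out.

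KLF4, a zinc finger factor of the gut epithelium, was at 37.4 and 34.2 FPKM in the DMSO libraries of the INTS8 line and 97.9 and 93.4 after dTAG13. In the N211del line it went from 49.2 and 48.0 to 113 and 116, and in the INTS11 line from 26 and 35.6 to 35.0 and 36. The groups did not overlap in the INTS8-tagged lines, while 1 INTS11 DMSO library lay between the 2 treated ones. In batch 2 KLF4 was at 42.0 and 41.7 at 0 h, 112 and 105 at 1 h and 122 and 124 at 3 h in N211del, against 58.3 and 54.3, 59.0 and 60.7, and 60.6 and 64.5 in INTS11. In batch 2 the N211del line thus began below the INTS11 line and was above it at 1 h. With DMSO in batch 1 the order was the reverse, at 49.2 and 48.0 in N211del against 26 and 35.6 in INTS11. TAF4B, a TFIID subunit, was at 5.59 and 5.97, then 13.3 and 13.2, then 13.5 and 13.2 in N211del, and between 5.41 and 6.38 in every INTS11 library of that batch. BCORL1, a corepressor of the BCOR family, was at 6.21 and 5.84, then 13.7 and 13.8, then 13.2 and 13.5, and between 6.04 and 7.02 in INTS11. OSR1, a zinc finger factor of mesoderm and kidney development, peaked at 1 h: 4.74 and 4.46, then 16.6 and 16, then 12.1 and 12.1, with INTS11 between 6.37 and 9.20.

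DUSP1, a phosphatase that switches off MAP kinases and whose promoter is shown above, was at 20.3 and 20.3 in INTS8 with DMSO and 55.8 and 55.8 with dTAG13. In N211del it went from 25.2 and 28.4 to 72.0 and 70.3, and in INTS11 from 14.5 and 18.7 to 20.7 and 18.4. IL1RAP, the shared chain of the interleukin-1 receptor, went from 3.91 and 4.01 to 11.5 and 11.2 in INTS8, from 3.14 and 3.12 to 10.2 and 10.6 in N211del, and from 3.51 and 3.82 to 3.99 and 4.42 in INTS11. ADAM22, a non-proteolytic ADAM receptor, went from 5.13 and 5.13 to 12.9 and 11.7 in INTS8 and from 3.48 and 3.18 to 8.74 and 10.5 in N211del. BAMBI, a pseudoreceptor that restrains TGF-beta signalling, was one of the highest members: 60.4 and 57.8 at 0 h, 117 and 112 at 1 h and 123 and 131 at 3 h in N211del, with INTS11 between 45.2 and 47.8.

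DBR1, which opens intron lariats, had one of the largest differences: 23.0 and 21.5 went to 81.4 and 81.3 in INTS8, 17.9 and 17.2 to 42.2 and 43.7 in N211del, and INTS11 held 22.3 and 23.1 before and 22.9 and 20.6 after. BPGM, which makes 2,3-bisphosphoglycerate from a glycolytic intermediate, went from 6.25 and 6.10 to 23.5 and 24 in INTS8 and from 5.25 and 5.89 to 14.3 and 13.4 in N211del, with all 4 INTS11 libraries between 6.40 and 7.07. MYLIP, a ubiquitin ligase that marks the LDL receptor for degradation, went from 65.5 and 63.3 to 133 and 127 in INTS8 and from 48.2 and 47.3 to 108 and 108 in N211del, and its INTS11 libraries moved from 70.3 and 70.2 to 78.3 and 75. FAM126A, named after its values were seen, had the largest smallest-of-3 rise: 2.0, 1.83 and 1.51 on the log2 scale in the 3 contrasts.

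**Figure D2:**
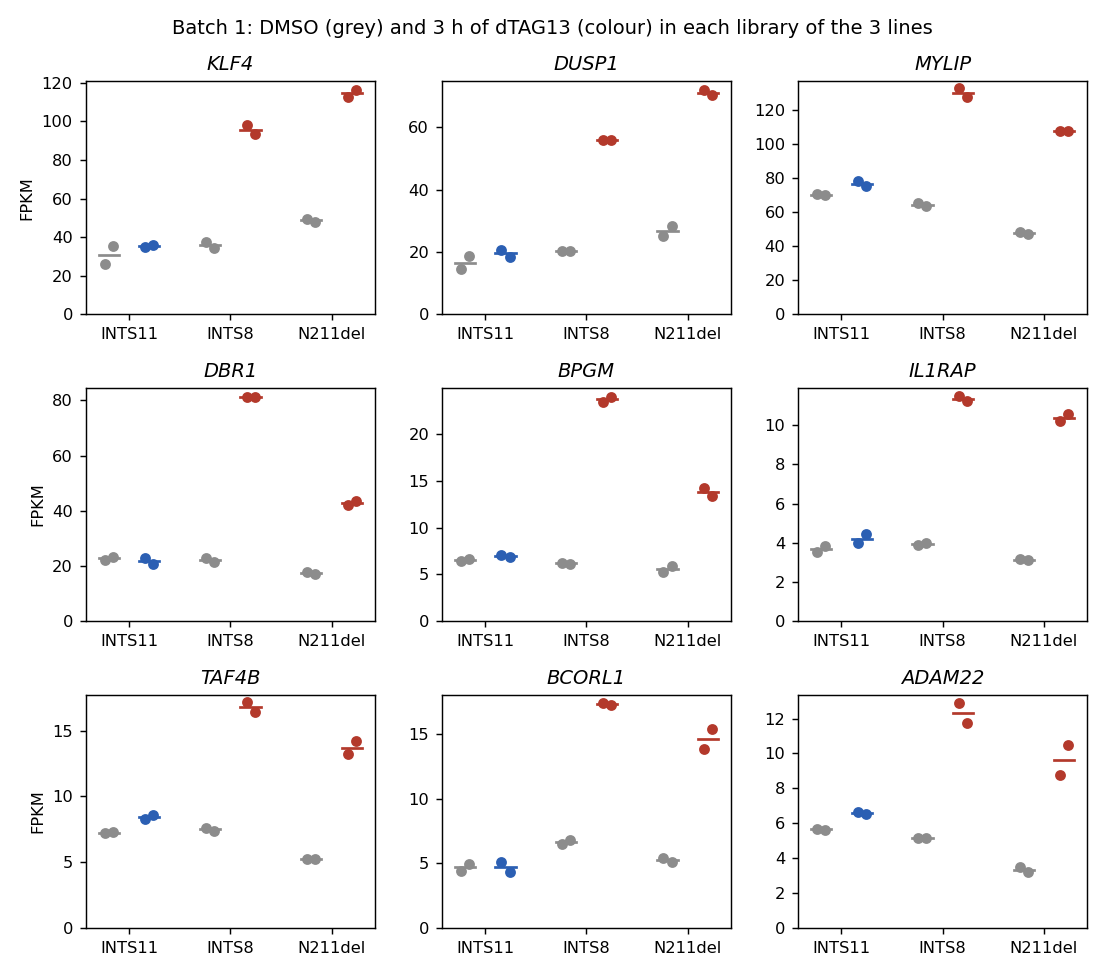
FPKM of 9 members in each batch 1 library (points), with the group mean as a bar, DMSO in grey and 3 h of dTAG13 in colour. KLF4 sits at 97.9 and 93.4 in treated INTS8 libraries against 35.0 and 36 in treated INTS11 libraries, and DBR1 reaches 81.4 in INTS8 but at most 43.7 in N211del.

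The higher level was already there at 1 h. From 0 to 1 h in N211del the members' median difference was 0.92, against 0.30 for all genes, and 126 members were at least 1.5-fold higher, where 24.8% of all genes were. The other 8 lay between 0.25 and that threshold, and none was lower than 0.25. Both 1 h libraries were above both 0 h libraries for all 134 (78.1% of all genes), and limma called all 134 higher (66.0%). These comparisons use the 0 h libraries of the rule, so they describe the timing and are not a separate test. From 1 to 3 h the members' median moved by −0.06 (all genes −0.13), and 91 members were higher at 1 h than at 3 h (83.5% of all genes), 10 of them by at least 0.25 (17.4%). IL1A, the interleukin-1 alpha cytokine, moved most, by −0.69, from 2.64 and 3.35 FPKM at 1 h to 2.22 and 1.48 at 3 h. The 1 member that gained more than 0.25 from 1 to 3 h was DPF3, a low-level chromatin reader (0.30). The lowest first-hour differences among the named members were held by TP53RK, a kinase of the KEOPS complex (0.46), POLR1F, a subunit of RNA polymerase I (0.47), and MAP1LC3B, the autophagosome protein LC3B, which was at 21.0 and 20.3 at 0 h and 32.7 and 30.9 at 3 h (0 to 1 h, 0.53).

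In INTS11 the members' median from 0 to 1 h was 0.19 and that of all genes 0.14. Of the members, 90 were within 0.25 (59.2% of all genes), 44 above it and none at 1.5-fold (13.4%). The share of all genes above 0.25 was not counted. The upper quartile of this difference was 0.28 in members and 0.38 in all genes. By limma, 70 were higher at 1 h in INTS11 (46.0% of all genes) and none lower (9.86%), a share of higher calls near that of all genes.

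**Figure D3:**
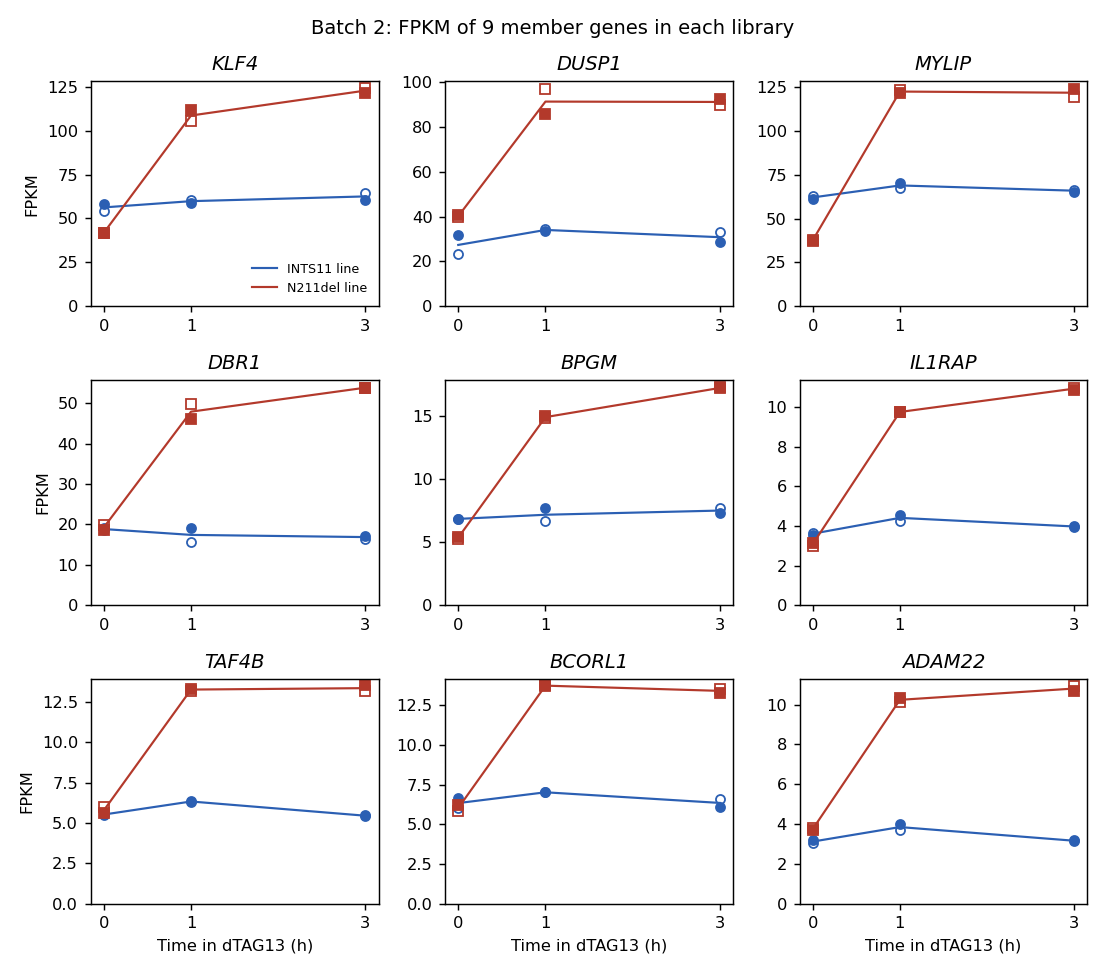
FPKM of 9 members in batch 2 against hours in dTAG13, with filled symbols for replicate 1, open symbols for replicate 2 and lines through the means of the INTS11 line (blue) and the N211del line (red). In N211del, MYLIP is at 37.4 and 37.8 at 0 h and 121 and 124 at 1 h, and changes little to 3 h, while INTS11 stays between 61.1 and 70.2.

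The 1 h libraries had no part in the choice, so the level in N211del was tested against that in INTS11 at this time. Of 134 members, 116 were higher in N211del and 8 lower (limma, Benjamini-Hochberg adjusted p under 0.05 over 6950 genes), where 53.2% of all genes were higher and 23.7% lower. Both N211del libraries lay above both INTS11 libraries for 119 members (61.7% of all genes) and below both for 9 (28.1%). The members' median difference was 0.72, with a median SE of 0.05 for a single gene, and that of all genes was 0.22. At 0 h the same comparison called 50 members higher (38.4% of all genes) and 55 lower (31.6%), with a median of −0.05. There were 59 members that lay below INTS11 at 0 h and above it at 1 h. How many of all genes did so was not counted, and the 0 h libraries were part of the rule. The median of all genes also moved up, from 0.05 at 0 h to 0.22 at 1 h. When libraries were centred on their medians, 103 members were higher at 1 h (36.8% of all genes) and 15 lower (38.9%). A 1 h level also holds what differed between the lines beforehand. As a comparison added after the data were seen, the 0 to 1 h change in N211del exceeded that in INTS11 for 130 members (39.3% of all genes) and fell short of it for none (9.24%); this comparison shares the 0 h libraries with the rule.

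**Figure D4:**
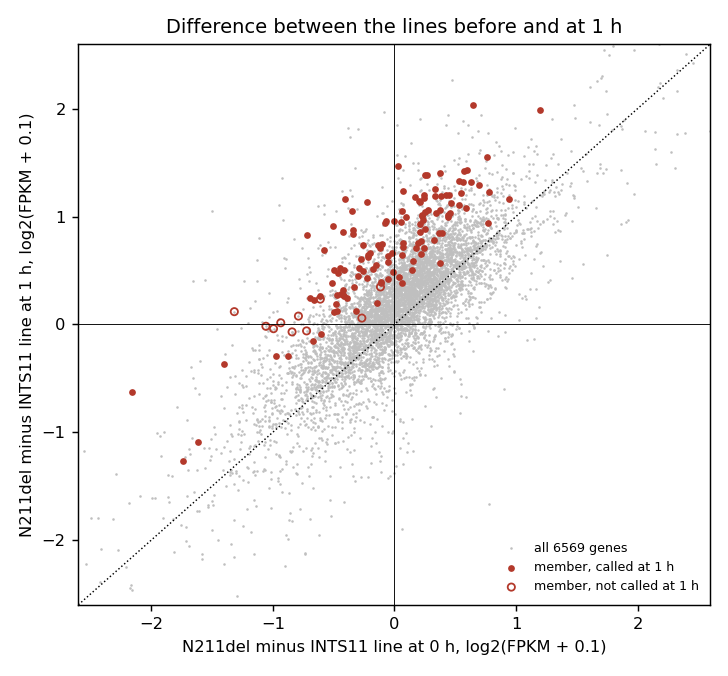
Difference between the N211del and INTS11 lines in log2(FPKM + 0.1), at 0 h on the x axis and at 1 h on the y axis, for all genes (grey, 21 of them beyond the axes) and members (red, open for the 10 not called at 1 h). All 134 members lie above the dotted line of equal difference. The 0 h libraries on the x axis were used by the rule, so this position is a description and not a test.

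By gene, the 1 h differences were 1.46 ± 0.08 (limma SE, n = 2 libraries a line) for DBR1, with a limma adjusted p of 2.46e-07, and 1.42 ± 0.13 for DUSP1 (limma adjusted p = 5.6e-06). Each SE rests on the spread over all 12 batch 2 libraries in the fit, not on the 4 libraries at 1 h alone. MYBL1, a MYB family factor, was at 15.7 and 16.1 FPKM in N211del against 5.6 and 5.12 in INTS11, a difference of 1.55 ± 0.05. FKBP5, a co-chaperone of the glucocorticoid receptor, was at 12.4 and 12.6 against 4.70 and 4.42 (1.43 ± 0.05), and KBTBD8, a substrate adaptor of CUL3 ubiquitin ligases, at 9.18 and 11.5 against 2.20 and 2.88 (1.99 ± 0.16). These 3 were already higher in N211del at 0 h, MYBL1 for example at 7.80 and 8.26 against 4.69 and 4.70. DUSP1 was too, by 1.48-fold at 0 h. IL1RAP (1.13 ± 0.05), BPGM (1.05 ± 0.06), TAF4B (1.05 ± 0.04), KLF4 (0.86 ± 0.05) and MYLIP (0.83 ± 0.03) were each higher as well, with limma adjusted p-values from 3.6e-08 to 2.56e-07.

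Other members were lower in N211del than in INTS11 at 1 h, or were not called. MXD1, a MAX partner that opposes MYC, was at 15.4 and 15.8 at 0 h and 24.3 and 24.6 at 1 h in N211del, against 49.5 and 46.8 and then 52.4 and 52.0 in INTS11, a 1 h difference of −1.09 ± 0.04. METTL7A, a lipid droplet and ER methyltransferase-like protein, differed by −1.27 ± 0.13, and CBLB, a ubiquitin ligase that damps receptor signalling, by −0.37 ± 0.05. IL1A was at 0.601 and 0.693 at 0 h and 2.64 and 3.35 at 1 h in N211del, and at 4.42 and 4.88 at 1 h in INTS11 (−0.62 ± 0.20, limma adjusted p = 0.0172). That call is lost without N211del replicate 1 (−0.46) or INTS11 replicate 2 (−0.55). PFKFB4, which sets the glycolytic signal fructose 2,6-bisphosphate, differed by 0.08 ± 0.09 (limma adjusted p = 0.469), and RGCC, a cell cycle regulator, by 0.12 ± 0.13 (0.433); both turn negative with centred libraries, at −0.15 and −0.11. RNF125, a ubiquitin ligase of RIG-I signalling, differed by 0.23 ± 0.14 (0.141). At 0 h the N211del to INTS11 ratio was 0.30 for METTL7A, 0.38 for CBLB, 0.58 for PFKFB4, 0.40 for RGCC and 0.66 for RNF125. From 0 to 1 h these genes, in that order, changed 1.76, 2.24, 1.82, 2.84 and 2.37-fold in N211del. In INTS11 they changed 1.27, 1.09, 1.00, 1.05 and 1.32-fold.

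The pathway lists held 12 of the 134 members (8.96%) and 415 of all 6569 genes (6.32%). The list counts at 1 h below stand against 53.2% of all genes higher and 23.7% lower in N211del than in INTS11, and those at 0 h against 38.4% and 31.6%. The list of hypoxia and glycolysis genes held 3 of its 19 measured genes: PFKFB4, the histone demethylase KDM3A and MXI1, another MAX partner. At 1 h 8 of the 19 were higher in N211del than in INTS11 and 4 lower, and at 0 h 3 were higher and 12 lower. KDM3A was at 27.3 and 25.7 against 22.1 and 21.6 (0.28 ± 0.05) and MXI1 at 12.2 and 12.7 against 11.1 and 9.99 (0.24 ± 0.05), and neither call holds with centred libraries, at 0.05 and 0.01. Of 40 measured chromatin modifiers, 28 were higher and 5 lower at 1 h and 21 higher and 10 lower at 0 h, and 3 were members: KDM3A, the H3K4 demethylase KDM5B (−0.29 ± 0.04) and ARID5B, a DNA-binding partner of PHF2 (0.85 ± 0.04). The nuclear receptor list held the coactivator NCOA1 (1.33 ± 0.06) and the corepressor NRIP1 (0.85 ± 0.05) among 13 measured genes. Of the 13, 7 were higher and 5 lower at 1 h and 6 higher and 6 lower at 0 h. The N211del to INTS11 ratio at 0 h was 1.45 for NCOA1, 1.29 for NRIP1, 1.31 for ARID5B, 0.51 for KDM5B and 0.74 for KDM3A.

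Single members came from other lists. CTR9, a scaffold of the PAF1 elongation complex, was the 1 member among 15 measured pausing and elongation genes, from 23.1 and 23.0 to 38.0 and 38.5 FPKM in INTS8 and from 16.1 and 15.8 to 30.6 and 33.9 in N211del in batch 1, with a 1 h difference between the lines of 0.76 ± 0.05, and 10 of the 15 were higher and 1 lower at 1 h (6 and 4 at 0 h). BAMBI was the 1 member among the TGF-beta and BMP targets, at 117 and 112 FPKM at 1 h in N211del against 47.8 and 47.7 in INTS11. Of 14 such targets tested in batch 2, 6 were higher and 5 lower at 1 h (3 and 8 at 0 h). MAP1LC3B was the 1 member among the autophagy genes (−0.16 ± 0.04). Of 20 tested in batch 2, 9 were higher and 6 lower at 1 h (5 and 9 at 0 h). DUSP1 was the 1 member among 14 measured MAPK feedback genes, of which 5 were higher and 6 lower (3 and 10 at 0 h). KLF4 was the 1 member among the immediate early genes. Of 22 tested in batch 2, 9 were higher and 9 lower (4 and 16 at 0 h). No measured p53 target (11 genes), Notch pathway gene (16), interferon-stimulated gene (20), ribosomal protein gene (21), Integrator subunit (7) or PP2A subunit (8) was a member; members are 2.04% of the measured genes.

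Further members are given by their values at 1 h. ARHGAP26, whose promoter is shown above, was at 7.54 and 7.75 FPKM at 0 h, 13.5 and 13.3 at 1 h and 15.7 and 15.8 at 3 h in N211del, and at 8.18 and 8.10 at 1 h in INTS11 (0.71 ± 0.04). TARS3, a threonyl-tRNA synthetase paralogue, was at 10.4 and 10.5 at 1 h against 5.68 and 5.10 (0.94 ± 0.07). CCN3, a secreted matricellular protein, was at 6.79 and 6.49 against 2.80 and 3.02 (1.16 ± 0.25, limma adjusted p = 0.0019), the widest error among those named here. SH3GL2 was at 11.7 and 12.3 at 0 h, 28.2 and 28.7 at 1 h and 22.9 and 22.3 at 3 h in N211del, and between 9.10 and 11.1 in INTS11. ERC1, a scaffold of the cell cortex, began higher in N211del, at 4.01 and 4.21 against 2.42 and 2.30, and was at 6.01 and 6.15 against 2.6 and 2.46 at 1 h. POLR1F was at 32.5 and 31.9 at 1 h against 20.1 and 19.3, with 22.7 and 23.8 against 21.6 and 19.7 at 0 h. SEMA3C, a secreted guidance cue, was at 20.5 and 20.3 at 1 h against 9.09 and 8.57. It was already 1.37-fold higher in N211del at 0 h.

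At the median, the members were longer than the measured genes. Gene length, recovered from the deposited values, had a median of 82210 bp in members and 34005 bp in all genes. It was 39739 bp in the 865 genes past 1.5-fold in all 3 contrasts of the INTS8-tagged lines. In the 269 genes past 1.5-fold in all 5 contrasts it was 24066 bp. The lower quartile of the members was 33154 bp, so not every member was long. DUSP1 was the shortest member at 3099 bp and PPARGC1A, the mitochondrial coactivator PGC-1 alpha, the longest at 680883 bp. Within the members, the median N211del difference from 0 to 1 h was 0.92 in the shortest 45, 0.95 in the next 44 and 0.88 in the longest 45, and from 1 to 3 h −0.02, −0.10 and −0.07. Their median level was 13.5 FPKM in batch 1 (all genes 16.8) and 12.3 in batch 2 (16.2). Whether length has a part in membership was not tested.

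**Figure D5:**
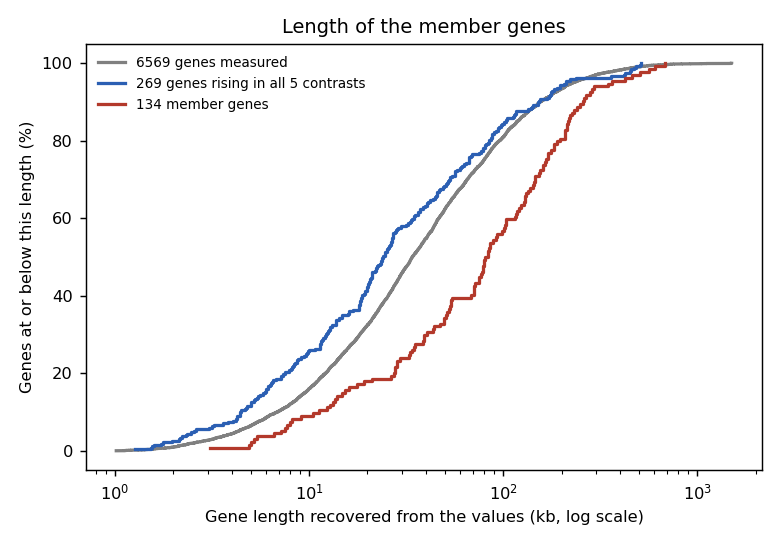
Cumulative share of genes, in percent, against gene length in kb on a log axis, for the 134 members (red), all 6569 measured genes (grey) and the 269 genes past 1.5-fold in all 5 contrasts (blue). The members' curve lies to the right, with a median of 82210 bp against 34005 bp.

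All 134 members matched protein-coding RefSeq genes. They lay on 21 of 24 chromosomes; none was on chromosome 19 or chromosome 22. Chromosome 19 holds 6.98% of the measured genes and 5.6% of those left once the symbols that the rule removed are set aside (347 of its 458 genes), and chromosome 22 holds 2.22% and 2.28%. Neighbouring measured genes were both members in 3 cases: GAREM1 and MAPRE2 on chromosome 18, CBLB and BBX on chromosome 3, and GNAI1 and SEMA3C on chromosome 7. MAPRE2, a microtubule end-binding protein, was at 8.72 and 8.59 FPKM at 0 h and 22 and 21.7 at 1 h in N211del, and GAREM1, an adaptor of growth factor receptors, at 8.51 and 8.68 and then 19.1 and 18.5. The GC content of the promoters had a median of 67.0% in members and 65.7% in all genes, with 29 and 27 CG dinucleotides.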

How the data were processed

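TT-seq libraries of 3 tagged DLD1 lines were analysed from the deposited tables, 1 per library. The values are FPKM, per the file headers. They behave as whole numbers divided by gene length (100% of those checked in batch 1, within 0.02). In batch 2 they are also multiplied by 1 factor per library (0.565 to 0.753). The basis of the factors is not among the sources used here. Batch 1 values carry no such factor, so batch 1 differences also hold differences in library totals. The submitters' processing notes name DESeq2 1.26.0, Picard 2.23.3, SAMtools 1.9, STAR 2.7.5c and Trim Galore 0.6.6, and 2 builds, mm10 and hg19, without a role. Whether counting used strand is not given, so overlapping genes are uncertain.

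Batches were kept apart. Group means of log2(FPKM + 0.1) gave the members. Tests used limma (version 3.58.1, under R 4.3.3) with a mean for every group, all 12 libraries of a batch in a fit, trended and robust empirical Bayes and Benjamini-Hochberg adjustment over all genes with a mean of at least 0.1 (6579 in batch 1, 6950 in batch 2); p-values are two-sided. The 0.1 added before taking logs understates changes of genes with low values. The procedure was run on simulated data with fewer changed genes than were called at 1 h, and nothing is read from that run here. Group and replicate came from the titles. Of the 6 pairs in batch 2, 3 differed by no more than counting noise (INTS11 at 0 and 3 h, N211del at 3 h). In the tests n = 2 was kept because the labels call them biological duplicates. None of the 3 is a 1 h group, but all 3 enter the spread that the 1 h test uses and can narrow its SEs.

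The members, gene lists and tests were chosen with earlier results of these data known. Named members are those in a list, the 16 with the largest smallest-of-3 rise, and the 4 highest and 4 lowest in 2 readouts at 1 h; outside the lists a mean of at least 1 was required, and names of non-coding or uncharacterised loci, including all FAM symbols (thus FAM126A), were passed over. GNAI1, SEMA3C, GAREM1, MAPRE2, BBX, SH3GL2, DPF3, PPARGC1A and FAM126A were named after their values were seen. Alternatives were pseudocounts, filters, centring, a replicate block, fewer libraries and, added after seeing the data, other INTS11 windows, voom, averaged pairs and the difference of changes. Genes outside the tables are not analysed here. Promoters were searched on both strands.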

Additional observations from a re-analysis of the deposited data

Results flagged for a closer look

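For 3 of the 134 members every INTS11 library at 1 h was below both 0 h libraries, while every N211del library at 1 h was above both 0 h libraries; 636 of the 6569 genes show such opposite movement. They are listed for that pattern, so no test of it is given here, and the difference was not tested in other libraries. DAAM1, a formin of the Wnt planar polarity pathway, differed by −0.12 in INTS11 and 0.88 in N211del from 0 to 1 h on the log2 scale. RCOR1, the CoREST corepressor, differed by −0.083 in INTS11 and 0.79 in N211del. TP53RK differed by −0.18 in INTS11 and 0.46 in N211del. At 3 h in INTS11, TP53RK was 1.15-fold its DMSO level in batch 1 and 0.88-fold its 0 h level in batch 2, so its direction differed between batches. DAAM1 was 0.90-fold and 0.84-fold, and RCOR1 0.90-fold and 0.87-fold. No group was large enough for a check of single outlying libraries.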

How the results depend on the processing

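The number of members was 135 and 130 with pseudocounts of 0.01 and 1, 128 with a mean of at least 1, and 122 to 152 when a library was left out, the extremes both coming from the treated INTS8 libraries. It was 53 with centred libraries, 56 with an INTS11 window of 0.15 and 213 with one of 0.35. The count of members higher in N211del than in INTS11 at 1 h was 116 with and without the replicate block (8 lower without it, 7 with it), 118 with voom, 115 with averaged pairs and 114 to 115 with a library left out. The median difference at 1 h was 0.64 with a pseudocount of 1 and 0.49 with centred libraries, the first-hour median 0.83 and 0.57 in N211del and 0.16 and 0.032 in INTS11; leaving out a library gave 0.70 to 0.74, 0.90 to 0.95 and 0.15 to 0.22. The cause of these shifts was not tested. For single named members, 498 of 507 pairs of gene and alternative kept direction and side of the threshold. PFKFB4 (−0.15) and RGCC (−0.11) reversed with centred libraries. With 2 libraries a group, a group left with 1 is assumed to vary like the others. Median SEs of 0.09 in batch 1 and 0.05 in batch 2 limit what differences can be seen.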

Other observations

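Control levels of some members differed between lines and between batches of the same line. GNAI1, an inhibitory G protein alpha subunit, was at 29.3 and 29.6 FPKM in the INTS11 line with DMSO in batch 1, and at 7.53 and 7.94 in INTS8 and 5.74 and 5.52 in N211del. In batch 2 the INTS11 line held 10.5 and 9.53 at 0 h and the N211del line 7.06 and 6.95. MXD1 was at 22.3 and 19 in the INTS11 line with DMSO in batch 1 and at 49.5 and 46.8 at 0 h in batch 2. Batch 2 values carried 1 factor per library and batch 1 values none, so levels are compared within a batch. Over all members, N211del minus INTS11 had a median of −0.27 with DMSO in batch 1 (all genes −0.17) and −0.05 at 0 h in batch 2 (all genes 0.05), and INTS8 minus INTS11 a median of 0.11 with DMSO (all genes 0.10). In batch 1, replicate 1 of treated N211del lay below replicate 2 by a median of 0.17 over the members, the widest gap of the 12 pairs. These libraries held 6175772 and 7015653 units, against 5612470 and 5514811 with DMSO. Treated INTS8 libraries held 8114955 and 7571707, against 7308329 and 7416280 with DMSO. For INTS11 the totals were 6761505 and 6631721, against 7025986 and 7101968. The part of library totals in the batch 1 differences was not tested.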
